A study of Homo sapiens with 24 samples.

Results

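MCF-10A cells that carry MYC-ER were compared with parental MCF-10A cells after both had received 4-hydroxytamoxifen (4-OHT) for 24 h. The comparison uses 6 of the 24 libraries of the series, 3 from each line, chosen by their labels and by no measured value. MCF-10A is an immortalised, non-tumorigenic human mammary epithelial line. MYC-ER is the transcription factor MYC fused to the ligand-binding domain of an oestrogen receptor, which keeps the fusion inactive until 4-OHT binds it. The labels give the genotype of one line as MYC.ER and of the other as wild-type. They do not give the promoter that drives the fusion, whether the MYC-ER line is a clone or a pool, or the species of its receptor part. Both lines grew in 3D culture on growth-factor-reduced Matrigel, a basement membrane gel. Both received 1 micromolar 4-OHT, and all cultures were collected on day 5, so that the cells treated for 24 h were as old as those treated for 0, 8 or 48 h. 4-OHT itself is therefore matched between the 2 groups, and a difference between them holds both the effect of the active fusion and any standing difference between the lines. The difference between the lines before 4-OHT, measured in another 6 libraries at 0 h, is given beside the results for that reason.

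MYC pairs with MAX, binds E-box sequences and raises the transcription of genes for ribosome assembly, nucleotide synthesis, glycolysis and DNA replication. MXD proteins, MXI1 and MNT compete with MYC for MAX. MYC also lowers the transcription of many genes of differentiation, adhesion and matrix. In cultures on basement membrane gels MCF-10A cells form hollow, polarised spheres, and their growth needs epidermal growth factor (EGF) and insulin.

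The 6 libraries held 144205617 to 168327854 counts, so a gene without counts in the smallest library is limited to a level of 0.0208 CPM, the unit of level used throughout (counts scaled to the same library total and not corrected for gene length). Counting error alone is covered by that limit of 3 counts, since PCR copies were not marked. Spearman correlations of log2 CPM were 0.990 to 0.991 among the MYC-ER libraries, 0.989 to 0.990 among the parental ones and 0.967 to 0.970 between the lines. No replicate pair agreed within sampling noise. The mitochondrial genome supplied 6.49% ± 0.16 (SD, n = 3) of all MYC-ER counts and 6.25% ± 0.78 of all parental counts, a difference within the spread between replicates (exact permutation test, two-sided, p = 0.7, where 3 against 3 cannot go below 0.1). The labels call the wells triplicates and name no separate cultures, so p-values measure the spread between these samples, which may be technical. All 8 basal mammary markers looked at were present at 1 CPM or more in both lines, with summed levels of 11600 to 12100 CPM in MYC-ER and 22300 to 25300 CPM in parental libraries. KRT5 and KRT14 made up most of those sums. TP63 and CDH3 differed less than the sum. TP63 was at 119.4 to 131.3 CPM against 137.9 to 147 CPM, and CDH3 at 331.1 to 354.7 CPM against 397.2 to 422.5 CPM. Luminal markers summed to 395 to 406 CPM and 305 to 363 CPM, with PGR and KIT at 0 counts. Of these, KRT8 was higher, at 150.2 to 160.3 CPM in MYC-ER against 40.6 to 51.42 CPM in parental libraries. KRT18 was at 225.4 to 228.2 CPM against 242 to 289.1 CPM, and KRT19 at 1.572 to 3.68 CPM against 6.648 to 6.916 CPM. GATA3 and FOXA1 overlapped between the lines. Fibroblast markers summed to 80 to 91.8 CPM and 77.3 to 82.3 CPM with COL1A2 and COL3A1 at 0 counts. Most of that sum came from COL1A1, at 53.55 to 67.99 CPM over the 6 libraries, and DCN, at 20.99 to 23.05 CPM. Endothelial markers summed to 1.94 to 2.04 CPM and 2.25 to 2.94 CPM with CDH5 at 0 counts. In such bulk samples, fewer cells of a type and less RNA per cell cannot be told apart.

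MYC transcript was lower in the MYC-ER line at 24 h. Its level was 330, 322 and 312 CPM in the 3 MYC-ER libraries and 511, 490 and 517 CPM in the 3 parental ones. The groups did not overlap, and the difference was -0.66 on the log2 scale (SE 0.07, edgeR quasi-likelihood test, adjusted p = 4.00e-08). At 8 h MYC was higher in MYC-ER, at 795, 793 and 797 CPM against 471, 475 and 443 CPM (log2 difference 0.78). ESR1, the oestrogen receptor gene, had 40, 17 and 33 counts in MYC-ER and 46, 25 and 44 counts in parental libraries at 24 h, and the groups overlapped. At 24 h neither gene therefore shows the fusion by a higher level, and whether reads from it could be assigned to these genes is not given in the sources used here. CDKN2A and CDKN2B, which MCF-10A lacks, had 0 counts in all 24 libraries.

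Of 22158 genes tested, 10936 (49.4%) differed between the lines at 24 h at an adjusted p under 0.05. They split into 5210 higher in MYC-ER (23.5%) and 5726 lower (25.8%), so that 47.6% of the calls were higher. Differences of at least 2-fold were found for 3399 genes (15.3%), 1850 higher (8.35%) and 1549 lower (6.99%). The replicate values of the lines did not overlap for 13374 genes (60.4%), and the median difference over all genes was 0.02 on the log2 scale. The share of higher calls depends on the scaling of the libraries: it was 60.7% with scaling by library size alone and 58.4% with upper-quartile scaling. Those scalings move the median of all genes to 0.14 and 0.12, so differences near 0 below are relative to a centre that is itself set by the scaling. The 24 genes with the most extreme differences among those at 10 CPM or more in the higher line are shown library by library in the plot of top genes. They also had to be called different, with replicate values that did not overlap between the lines. Clone-based and LINC names, read-through pairs and pseudogenes were left out.

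**Figure D1:**
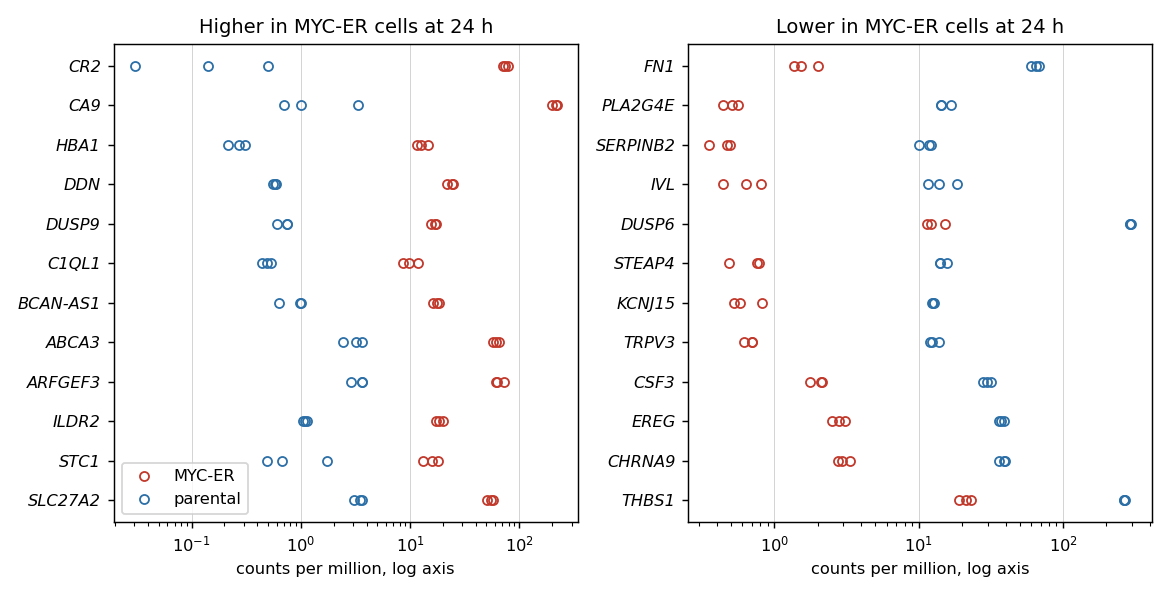
Levels of the 12 genes with the largest positive and the 12 with the largest negative difference at 24 h, among genes at 10 CPM or more in the higher line. Each circle is 1 library (CPM on a log axis, red for MYC-ER, blue for parental, n = 3 each). CR2 runs from 70.9 to 78.3 CPM against 0.0301 to 0.499 CPM. A lack of overlap between the lines was a condition for showing a gene.

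Among genes at 10 CPM or more in the higher line that met the plot's other conditions, the largest difference belonged to CR2. This complement receptor is used by B cells to bind C3 fragments. CR2 (ENSG00000117322.17) was at 78.3, 74.3 and 70.9 CPM in MYC-ER and at 0.0301, 0.14 and 0.499 CPM in parental libraries. It was high in all MYC-ER libraries and nearly absent from the parental ones, with a log2 difference of 8.38 (SE 0.39, adjusted p = 1.47e-13). Without parental replicate 3, which had the highest parental level, that difference was 9.80. CA9, carbonic anhydrase 9, is a cell-surface enzyme and a standard marker of hypoxia. CA9 (ENSG00000107159.13) was at 220, 217 and 198 CPM in MYC-ER and at 0.995, 0.708 and 3.31 CPM in parental libraries. Its log2 difference was 6.98 (SE 0.44, adjusted p = 1.95e-11), and 7.95 without parental replicate 3.

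The promoters of CR2 and CA9 are shown because these genes had large positive differences and because both hold ACGTG, the core letters of the hypoxia response element, which is also the inner part of the E-box CACGTG. Each line gives the 250 bases before the RefSeq start site on GRCh38.p14, read 5′ to 3′ on the gene's strand, with matches in capitals.
CR2, chr1:207454078-207454327, plus strand: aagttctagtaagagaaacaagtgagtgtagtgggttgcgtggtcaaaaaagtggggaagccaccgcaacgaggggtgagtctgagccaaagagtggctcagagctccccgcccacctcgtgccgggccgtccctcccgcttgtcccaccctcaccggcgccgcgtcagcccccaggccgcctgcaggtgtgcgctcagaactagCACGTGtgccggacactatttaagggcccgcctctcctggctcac
CA9, chr9:35673678-35673927, plus strand: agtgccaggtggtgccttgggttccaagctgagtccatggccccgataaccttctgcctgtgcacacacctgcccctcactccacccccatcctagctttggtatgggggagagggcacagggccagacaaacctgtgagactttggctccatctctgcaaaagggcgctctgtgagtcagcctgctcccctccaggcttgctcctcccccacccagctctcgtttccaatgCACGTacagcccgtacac
In CR2 the capitals spell the palindrome CACGTG, an E-box that holds ACGTG on both strands, with its first letter 45 bases before the start. In CA9 the capitals are ACGTG on the opposite strand, with the first letter 18 bases before the start. Among the 13263 tested genes with a promoter in the table, 22.6% had ACGTG in this window on either strand and 8.52% had CACGTG. A match in letters is a description and not evidence of binding.

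Genes of the hypoxia response, which the HIF factors activate when oxygen is low, were mostly higher. Of 23 measured, 17 were higher and 4 lower, with a median log2 difference of 0.84 against 0.02 for all genes, and 10 were higher by at least 2-fold. EGLN3, an oxygen-sensing prolyl hydroxylase, was at 105, 102 and 93.2 CPM in MYC-ER and 14.5, 14.7 and 28.8 CPM in parental libraries. Its log2 difference was 2.37 (SE 0.30, adjusted p = 8.88e-07). STC2, a secreted glycoprotein, was at 125, 122 and 111 CPM against 24.4, 23.7 and 26.3 CPM, a log2 difference of 2.27. The groups were far apart for both genes. LOX, which cross-links collagen, was at 79.2, 75.7 and 73.3 CPM against 22.1, 19.9 and 23.8 CPM (log2 difference 1.79). Glucose handling was represented by PDK1, a kinase that inhibits pyruvate dehydrogenase (log2 difference 1.40), and PFKFB4, which sets glycolytic flux (1.55). Vasodilator peptide ADM differed by 1.63 and BNIP3, a mitophagy receptor, by 1.40. VEGFA, the best known angiogenic target, was only slightly higher, at 181 ± 9.30 CPM (SD, n = 3) against 152 ± 4.96 CPM (log2 difference 0.25, adjusted p = 5.30e-03).

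The 4 lower members included ANGPTL4, a lipoprotein lipase inhibitor, with a log2 difference of -1.63, and the repressor BHLHE40, with -1.42. CA12 and P4HA2 were the other lower members, and ANKRD37 and ERO1A did not pass the test. Parental replicate 3 had the highest parental value of CA9, EGLN3, ADM and NDRG1. NDRG1, a stress-induced cytoplasmic protein, stood at 1211 CPM there against 876 and 800 CPM in the other parental libraries, and at 1814, 1718 and 1628 CPM in MYC-ER (log2 difference 0.84). Of 20 hypoxia genes with a promoter in the table, 11 (55%) held ACGTG against 22.6% of all genes. They include CA9, LOX, BNIP3, P4HA1 and the lower genes ANGPTL4 and BHLHE40. Among other lists described below, ACGTG was in 38.2% of mitosis, 33.3% of protease and 25% of ribosome biogenesis promoters. It was in 14.3% of ERK-induced and 11.1% of cytokine promoters.

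The remaining genes at the top have unlike functions. HBA1, an alpha globin gene, was at 14.5, 12.5 and 11.5 CPM against 0.271, 0.214 and 0.306 CPM. Its log2 difference of 5.60 is uncertain, because HBA2 is nearly identical and reads could be split between them. DDN, a postsynaptic and podocyte protein, was at 24.9, 24.4 and 21.7 CPM against 0.591, 0.575 and 0.561 CPM (log2 difference 5.36). The lines were separated by more than an order of magnitude for each. DUSP9, a phosphatase that inactivates ERK, was at 17.1, 15.6 and 17.0 CPM against 0.742, 0.601 and 0.754 CPM (log2 difference 4.57). ABCA3, a lipid transporter of lamellar bodies, was at 65.4, 61.2 and 57.1 CPM against 3.21, 2.45 and 3.63 CPM (log2 difference 4.30). SLC27A2, which takes up and activates very long chain fatty acids, was at 57.2, 55.5 and 51.0 CPM against 3.10, 3.62 and 3.46 CPM (log2 difference 4.01). That the values of these genes do not overlap between the lines was a condition of their choice.

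Another 5 genes completed the 12 most raised. ARFGEF3 differed by 4.27, the secreted protein C1QL1 by 4.38, ILDR2 by 4.08 and STC1, a secreted glycoprotein and paralogue of STC2, by 4.01 on the log2 scale. For STC1 the value was 4.75 without parental replicate 3. BCAN-AS1, an antisense RNA, differed by 4.30, but whether counting used strand is not given in the sources used here, so reads of an overlapping gene cannot be told apart.

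Genes of the extracellular matrix and its receptors were lower. Of 28 measured genes for basement membrane, matrix and integrins, 18 were lower and 6 higher, with a median log2 difference of -0.76, and 12 were lower by at least 2-fold. FN1 (ENSG00000115414.19), fibronectin, was at 2, 1.37 and 1.52 CPM in MYC-ER and 65.5, 60.0 and 68.7 CPM in parental libraries. Its log2 difference was -5.31 (SE 0.14, edgeR quasi-likelihood test, adjusted p = 1.83e-17). That was the most negative value among genes at 10 CPM or more in the higher line that met the other conditions for the plot. THBS1, thrombospondin, was at 23.0, 19.1 and 21.1 CPM against 266, 268 and 266 CPM (log2 difference -3.66). Neither gene had a MYC-ER library near the parental range.

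LAMB3 and LAMA3, laminin chains of the basement membrane under basal epithelia, were lower together. LAMB3 was at 474, 434 and 420 CPM against 1678, 1588 and 1735 CPM (log2 difference -1.91). LAMA3 was at 544, 486 and 468 CPM against 1531, 1463 and 1627 CPM (log2 difference -1.62). Integrin subunits that bind laminin were lower too: ITGA6 was at 632, 550 and 568 CPM against 1706, 1520 and 1777 CPM (log2 difference -1.51), while ITGB4 differed by -0.76. ITGB6, part of an integrin that activates TGF-beta, was at 10.8 ± 0.782 CPM (SD, n = 3) against 63.4 ± 2.63 CPM, a log2 difference of -2.54. Collagen IV went the other way for COL4A2, at 70.3, 67.1 and 63.7 CPM against 33.8, 28.6 and 37.2 CPM (log2 difference 1.01).

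Secreted proteases and their inhibitors were lower. Of 21 measured, 17 were lower and 2 higher, and the median log2 difference was -1.46. PLAU, the urokinase that generates plasmin, was at 10, 8.58 and 8.6 CPM in MYC-ER and 84.9, 94.4 and 87.4 CPM in parental libraries (log2 difference -3.29, SE 0.08, adjusted p = 7.04e-18). SERPINB2, an inhibitor of urokinase, was at 0.466, 0.353 and 0.493 CPM against 11.8, 12.2 and 10.1 CPM (log2 difference -4.70). Protease and inhibitor were thus both low. MMP1, the interstitial collagenase, was at 1.70, 1.56 and 1.58 CPM against 17.2, 17.0 and 17.3 CPM (log2 difference -3.41). MMP10, stromelysin 2, was at 1.69, 1.57 and 1.77 CPM against 8.28, 9.64 and 8.84 CPM (log2 difference -2.41). SERPINB5, maspin, remained abundant at 602 ± 31.7 CPM (SD, n = 3) against 2339 ± 73.0 CPM (log2 difference -1.96). TIMP3, a matrix-bound metalloprotease inhibitor, was one of the higher pair, with a log2 difference of 1.2.

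Promoters of 2 of these genes are shown because their list often held TGANTCA, the letters bound by AP-1, the dimer of FOS and JUN proteins. Windows are as above, with the match in capitals.
SERPINB2, chr18:63887455-63887704, plus strand: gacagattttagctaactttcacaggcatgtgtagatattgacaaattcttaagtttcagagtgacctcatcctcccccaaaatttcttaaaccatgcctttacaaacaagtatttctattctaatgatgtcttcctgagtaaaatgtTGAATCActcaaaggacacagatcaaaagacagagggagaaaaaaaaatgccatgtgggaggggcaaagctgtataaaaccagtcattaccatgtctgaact
MMP10, chr11:102780629-102780878, minus strand: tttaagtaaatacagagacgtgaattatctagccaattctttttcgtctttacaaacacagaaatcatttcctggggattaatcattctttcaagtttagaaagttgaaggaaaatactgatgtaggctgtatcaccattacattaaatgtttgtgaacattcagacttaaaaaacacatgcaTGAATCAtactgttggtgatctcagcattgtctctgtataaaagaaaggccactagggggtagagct
Both windows hold TGAATCA, with its first letter 102 bases before the start of SERPINB2 and 67 bases before that of MMP10. TGANTCA on either strand was found in 6 of 12 promoters of the protease list (50%) and in 4.71% of all promoters. The other 4 were those of SERPINB5, PLAUR, TFPI2 and MMP7, each lower in MYC-ER. These letters were also found in 4 of 18 promoters of the cytokine list (22.2%).

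Genes that ERK signalling induces, among them its own feedback inhibitors, were lower. Of 21 measured, 17 were lower and 1 higher, with a median log2 difference of -1.40, and 15 were lower by at least 2-fold. DUSP6 (ENSG00000139318.8), the phosphatase that inactivates ERK, was at 15.2, 11.4 and 12.1 CPM in MYC-ER and 291, 290 and 298 CPM in parental libraries. The log2 difference was -4.50 (SE 0.10, adjusted p = 2.48e-18). SPRY4, an inhibitor of receptor tyrosine kinase signalling, was at 7.56, 6.63 and 6.67 CPM against 88.2, 83.8 and 87.6 CPM (log2 difference -3.64). PHLDA1 differed by -3.04. The lines did not overlap for any of these. AP-1 subunits belonged to the same list: FOSL1 was at 9.54, 7.87 and 8.82 CPM against 59.1, 62.5 and 60.0 CPM (log2 difference -2.79), and FOS differed by -2.73. EGR1, an immediate early transcription factor, was reduced less, at 83.3 ± 5.62 CPM (SD, n = 3) against 214 ± 13.3 CPM (log2 difference -1.36). SPRY1 was the single higher member, at 8.63 ± 0.692 CPM against 4.07 ± 0.381 CPM.

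Ligands of the EGF receptor were lower, and its own transcript was not called. Of 11 receptors and ligands, 8 were lower and 0 higher, with a median log2 difference of -0.79. EREG, epiregulin, was at 3.06, 2.51 and 2.79 CPM against 38.9, 37.2 and 35.8 CPM (log2 difference -3.74). HBEGF was at 2.97, 2.68 and 3.29 CPM against 33.6, 35.0 and 29.4 CPM (log2 difference -3.45). AREG, amphiregulin, differed by -1.94. For each of these ligands every MYC-ER library lay below every parental one. EGFR was at 683, 611 and 606 CPM against 728, 683 and 785 CPM, ranges that touch, with a log2 difference of -0.21 and an adjusted p of 0.0982.

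Inflammatory secreted factors had a median of -1.98, or -1.94 when CXCL5, absent from MYC-ER, is set at its 3-count limit and CCL2, at or under that limit in both lines, is left out. Of 27 measured, 20 were lower and 4 higher. With at least 10 counts in every library compared the median was -1.08 over 21 genes, 15 of them lower. CSF3, the granulocyte growth factor, was at 2.12, 2.12 and 1.77 CPM against 29.5, 31.6 and 27.9 CPM (log2 difference -3.89, SE 0.11, adjusted p = 4.28e-17). CXCL8, interleukin 8, was at 0.547, 0.442 and 0.308 CPM against 4.33, 4.96 and 3.11 CPM (log2 difference -3.25). These factors were low in each MYC-ER library. IL33, a nuclear alarmin, differed by -3.74, and the chemokines CCL20 and CXCL1 by -2.91 and -2.87, where CXCL1 shares sequence with CXCL2 and CXCL3. IL1A was at 19.6, 18.5 and 18.2 CPM against 70.7, 78.2 and 62.8 CPM (log2 difference -1.91). PI3, elafin, an elastase inhibitor, differed by -2.75. LIF, a cytokine of the interleukin 6 family, was higher, at 6.39 ± 0.193 CPM (SD, n = 3) against 2.52 ± 0.118 CPM. Leukocyte markers summed to 11.5 to 14.2 CPM in MYC-ER and 22.7 to 24.5 CPM in parental libraries, with the defining genes PTPRC and CD3E at 0 counts. The 2 lines differed in opposite directions for CD68 and CD14. CD68 was at 8.63, 5.94 and 7.67 CPM against 19.35, 19.86 and 20.76 CPM. CD14 was at 5.58, 5.57 and 5.04 CPM against 3.32, 3.68 and 3.77 CPM.

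**Figure D2:**
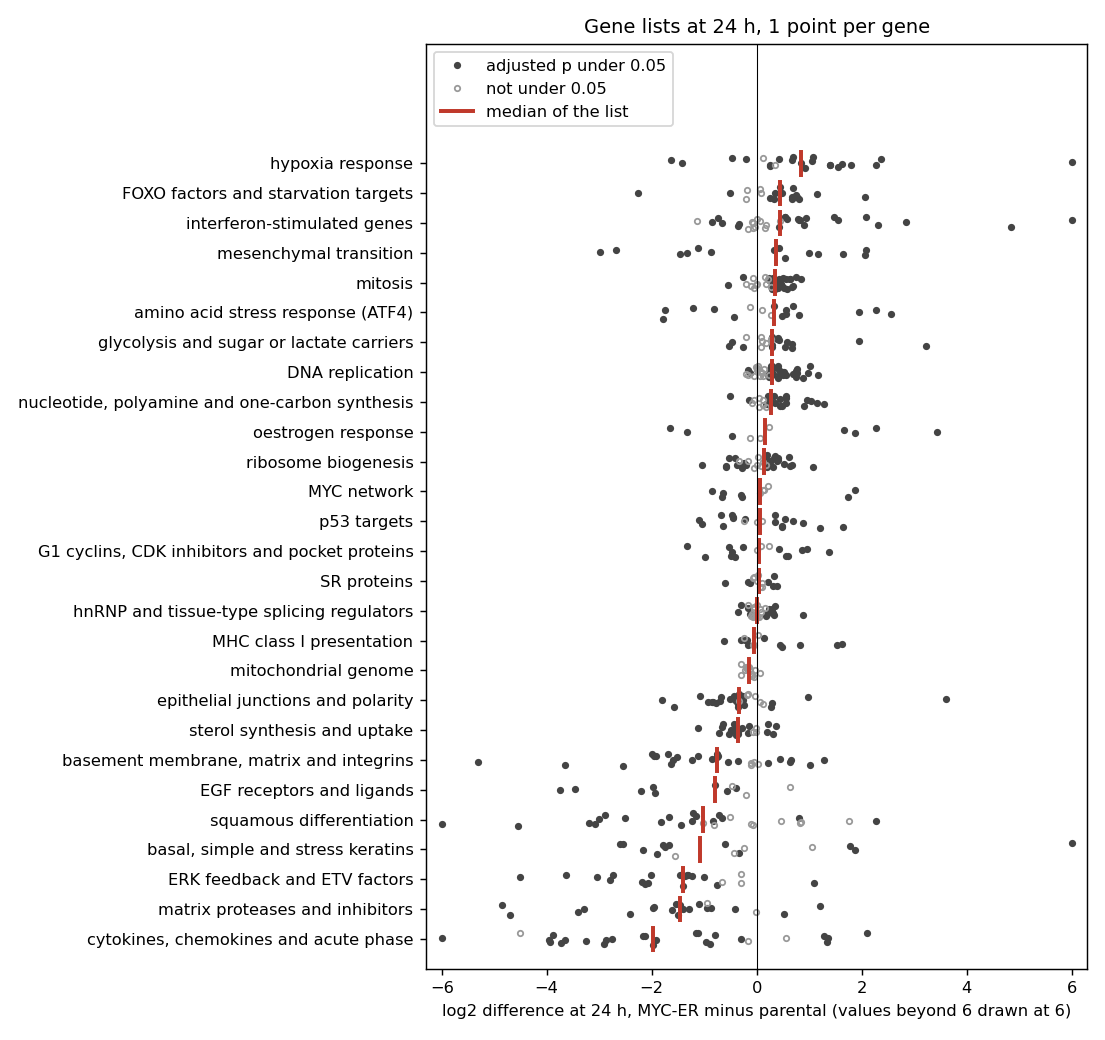
Log2 difference at 24 h, MYC-ER minus parental, for each measured gene of 27 lists, ordered by median. Points are genes (filled, adjusted p under 0.05; open, not; vertical jitter is for display) and red bars are medians, which run from -1.98 for cytokines to 0.84 for the hypoxia response.

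Keratins of the basal and stress type were lower, while KRT8 and KRT15 were higher. Of 16 keratins, 9 were lower and 3 higher, and the median log2 difference was -1.09. KRT14, the partner of KRT5 in basal cells, was at 1637, 1593 and 1672 CPM in MYC-ER and 6029, 5835 and 6347 CPM in parental libraries (log2 difference -1.89). KRT5 itself was reduced less, at 7095 ± 144 CPM (SD, n = 3) against 10820 ± 765 CPM (log2 difference -0.61). KRT17 differed by -2.17, KRT6A by -1.79 and KRT16 by -2.55, though KRT6 and KRT14, KRT16 and KRT17 have close copies and pseudogenes that could share reads. KRT15, found in basal and stem-like keratinocytes, was at 745, 803 and 827 CPM against 205, 217 and 227 CPM (log2 difference 1.87). KRT8, a keratin of simple epithelia, was at 160, 150 and 155 CPM against 43.6, 40.6 and 51.4 CPM (log2 difference 1.78). Its partner KRT18 was at 228, 225 and 227 CPM against 272, 242 and 289 CPM and did not pass the test (log2 difference -0.24, adjusted p = 0.0711). The basal markers, which share 3 of these keratins, were lower as a sum, as given above, and the part of a change in basal character was not tested.

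Squamous differentiation genes, which build the cornified layer of skin, were also lower. Of 27 measured, 16 were lower and 2 higher, with a median log2 difference of -1.01. IVL, involucrin, was at 0.803, 0.442 and 0.634 CPM against 11.7, 13.9 and 18.5 CPM (log2 difference -4.54). SPRR1B, another envelope precursor, was at 15.8, 14.4 and 14.7 CPM against 114, 143 and 126 CPM (log2 difference -3.09). Both genes were separated between the lines in every library. S100A8, a calcium-binding alarmin, differed by -2.90. PPL, periplakin, was one of the higher pair (log2 difference 0.80).

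Another 5 of the 12 most reduced genes lie outside these lists. PLA2G4E, a cytosolic phospholipase, was at 0.506, 0.562 and 0.442 CPM against 16.7, 14.2 and 14.3 CPM (log2 difference -4.90). STEAP4, a metalloreductase, was at 0.757, 0.776 and 0.481 CPM against 15.8, 14 and 13.9 CPM (log2 difference -4.44). TRPV3, a heat-gated cation channel of keratinocytes, differed by -4.23, the potassium channel KCNJ15 by -4.29 and the acetylcholine receptor subunit CHRNA9 by -3.66. All 5 were near or below a few CPM in each MYC-ER library and above 10 CPM in each parental one.

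Junction and polarity genes were mostly reduced by less than 2-fold. Of 31 measured, 21 were lower and 4 higher, the median log2 difference was -0.35, and 3 were lower by at least 2-fold. CDH1, E-cadherin, was at 119, 109 and 112 CPM against 216, 207 and 227 CPM (log2 difference -0.94), and CTNNA1, which ties cadherins to actin, differed by -0.68. CLDN1, a tight junction claudin, was at 9.51, 8.74 and 8.89 CPM against 26.5, 28.6 and 26.2 CPM (log2 difference -1.58). EPCAM, an adhesion protein of simple epithelia and carcinomas, stood apart, at 77.8, 77.3 and 72.3 CPM against 6.23, 6.39 and 6.12 CPM (log2 difference 3.60, SE 0.08, adjusted p = 2.48e-18). All 3 MYC-ER libraries were more than an order of magnitude above the parental ones.

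Mesenchymal genes were split. Of 14 measured, 8 were higher and 6 lower, with a median log2 difference of 0.38. VIM, vimentin, was at 812, 780 and 755 CPM against 336, 311 and 398 CPM (log2 difference 1.17). CDH2, N-cadherin, was at 22.2, 19.1 and 18.3 CPM against 4.51, 4.91 and 4.90 CPM (log2 difference 2.06). Both were clear of the parental range. SNAI2, a repressor of E-cadherin, was lower, at 45.5, 42.5 and 44.8 CPM against 123, 122 and 120 CPM (log2 difference -1.46), and FOXC2 differed by -2.68.

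Ribosome biogenesis genes, the textbook targets of MYC, differed in both directions at 24 h. Of 34 measured, 16 were higher and 10 lower, with a median log2 difference of 0.15. FBL, the methyltransferase fibrillarin, was at 296, 288 and 293 CPM against 136, 140 and 143 CPM (log2 difference 1.06, SE 0.10, adjusted p = 6.10e-09). NPM1 and NCL, abundant nucleolar proteins, differed by 0.40 and 0.39. RRS1, an assembly factor of the large subunit, was lower, at 27.6, 25.2 and 24.2 CPM against 55.7, 50.1 and 53.7 CPM (log2 difference -1.05). The values of FBL and RRS1 did not overlap between the lines, and the 2 genes lay on opposite sides. CACGTG was found in 2 of 28 promoters of this list (7.14%), near the 8.52% of all promoters. It was in 3 of 20 hypoxia promoters (15%), 5 of 34 mitosis promoters (14.7%) and 1 of 12 protease promoters (8.33%). The ERK-induced and cytokine promoters had 0.

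Genes of nucleotide, polyamine and one-carbon synthesis were more often higher, 18 of 27 against 2 lower, with a median of 0.27. PHGDH, the first enzyme of serine synthesis, was at 24.6, 23.7 and 25.2 CPM against 10.3, 9.68 and 10.3 CPM (log2 difference 1.28). ODC1, the first enzyme of polyamine synthesis and a classical MYC target, was lower, at 363, 342 and 330 CPM against 504, 475 and 493 CPM (log2 difference -0.51).

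Genes of DNA replication and mitosis were higher by modest amounts. Of 43 replication genes, 28 were higher and 2 lower, with a median log2 difference of 0.29. CDT1, which licenses origins, was at 77.7, 73.5 and 69.1 CPM against 33.4, 30.4 and 34.7 CPM (log2 difference 1.16). MCM2, a subunit of the replicative helicase, was at 219, 210 and 202 CPM against 108, 101 and 111 CPM (log2 difference 0.98). The MYC-ER range lay far above the parental range for each. Of 40 mitosis genes, 28 were higher and 2 lower, with a median of 0.34. KIF20A, a kinesin of cytokinesis, was at 188, 183 and 185 CPM against 99.5, 102 and 108 CPM (log2 difference 0.84, SE 0.07, adjusted p = 3.42e-09). CENPF, a kinetochore protein, differed by 0.67, and MKI67, a proliferation antigen, by 0.23, at 372 ± 8.71 CPM (SD, n = 3) against 318 ± 9.40 CPM. CKAP2L, a spindle protein, was one of the 2 lower genes (log2 difference -0.54). None of the 40 differed by 2-fold at 24 h.

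Promoters of 2 mitosis genes are shown because the list shared TTTGAA, letters of the cell cycle genes homology region that the DREAM and MYB-MuvB complexes bind, and CCAAT, the box bound by NF-Y. Capitals mark both motifs on either strand, in windows as above.
HMMR, chr5:163460382-163460631, plus strand: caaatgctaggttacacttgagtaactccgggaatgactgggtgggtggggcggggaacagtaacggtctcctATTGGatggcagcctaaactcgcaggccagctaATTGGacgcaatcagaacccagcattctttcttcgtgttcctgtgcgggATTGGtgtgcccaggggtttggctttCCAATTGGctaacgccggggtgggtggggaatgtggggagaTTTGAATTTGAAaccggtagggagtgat
PIF1, chr15:64825648-64825897, minus strand: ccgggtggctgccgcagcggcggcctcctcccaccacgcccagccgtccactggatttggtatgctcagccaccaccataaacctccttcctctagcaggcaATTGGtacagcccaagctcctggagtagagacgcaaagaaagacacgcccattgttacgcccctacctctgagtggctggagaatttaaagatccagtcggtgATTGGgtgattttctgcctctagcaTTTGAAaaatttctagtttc
HMMR, a spindle-binding hyaluronan receptor, holds TTTGAA at 28 and again at 22 bases before its start, and 5 matches to CCAAT. PIF1, a DNA helicase, holds TTTGAA at 20 bases and 2 matches to CCAAT. Of the mitosis promoters, 19 of 34 held TTTGAA (55.9%, against 9.14% of all promoters), and 26 of 34 held CCAAT (76.5%, against 34.5% of all). HMMR was at 123, 120 and 119 CPM in MYC-ER against 75.2, 72.3 and 75.7 CPM (log2 difference 0.70), and PIF1 at 21.1, 29.5 and 31.7 CPM against 18.3, 19.0 and 15.5 CPM (log2 difference 0.64). Both were higher in every MYC-ER library.

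Regulators of the step into S phase did not share a direction, with 6 of 16 higher, 7 lower and a median of 0.05. CCND1, cyclin D1, was at 73.2, 63.4 and 62.4 CPM against 174, 152 and 175 CPM (log2 difference -1.33). CCND2, cyclin D2, was at 84.2, 82.3 and 80.2 CPM against 33.0, 29.3 and 32.5 CPM (log2 difference 1.38). The D cyclins thus differed in opposite directions. Among inhibitors of cyclin-dependent kinases, CDKN1B differed by 0.59 and CDKN1A, a p53 target, by -0.47.

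Glycolysis genes and sugar carriers were more often higher, 12 of 21 against 3 lower, with a median of 0.29. ALDOC, an aldolase, was at 98.5, 98.6 and 91.2 CPM against 23.1, 23.9 and 27.8 CPM (log2 difference 1.95), and GAPDH at 5728, 5661 and 5508 CPM against 3332, 3524 and 3747 CPM (log2 difference 0.67). ENO2, the neuronal enolase, differed by 3.22 from a low parental level of 0.823 ± 0.081 CPM (SD, n = 3). PKM, pyruvate kinase, was lower (log2 difference -0.53). Sterol synthesis went the other way: 16 of 23 genes were lower and 4 higher, with a median of -0.36. SQLE, squalene epoxidase, was at 324, 302 and 294 CPM against 493, 473 and 493 CPM (log2 difference -0.66). DHCR7, the last enzyme of the pathway, was among the higher ones (log2 difference 0.36).

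Genes of starvation and stress had mixed patterns. Of 19 FOXO factors and starvation targets, 13 were higher and 2 lower, with a median of 0.44. PDK4, which spares glucose, was at 36.0, 37.9 and 38.7 CPM against 9.64, 8.66 and 8.5 CPM (log2 difference 2.07), and TRIB1 was lower (-2.26). Amino acid stress targets of ATF4 were split 9 higher to 5 lower of 17, with CTH, which makes cysteine, at 2.56 and the transcription factor CEBPB at -1.79. Targets of p53 were split 9 to 8 of 20, with a median of 0.06. GDF15, a stress cytokine, differed by 1.65 and MDM2, the ubiquitin ligase of p53, by -0.65.

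Of 32 interferon-stimulated genes, 16 were higher and 5 lower, with a median of 0.44. IFI27 was at 7.05, 9.60 and 8.81 CPM against 1.27, 1.27 and 1.02 CPM (log2 difference 2.84), and IFI6 differed by 2.30. OAS1, a sensor of double-stranded RNA, was lower (-0.85). Class I antigen presentation was split 6 to 5 of 15. NLRC5, its transcriptional activator, was at 22.5, 22.5 and 22 CPM against 7.66, 7.02 and 7.04 CPM (log2 difference 1.62). Its median of -0.05 turned positive with scaling by library size alone and by the upper quartile. The 13 mitochondrially encoded genes had no call in either direction.

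Among 11 genes of the MYC network, 2 were higher and 5 lower, a split that turned to 5 higher and 4 lower with scaling by library size alone and was 5 to 5 by the upper quartile. MXI1, a competitor of MYC that is also a HIF target, was at 102, 98.2 and 95.0 CPM against 24.7, 26.9 and 29 CPM (log2 difference 1.88). MAX differed by -0.29 and MLX, a MAX-like partner of other factors, by -0.84. Splicing factors of the SR family, which MYC is known to raise, had 4 of 14 genes higher and 3 lower, with SRSF1 at 384 ± 2.91 CPM (SD, n = 3) against 332 ± 10.5 CPM (log2 difference 0.21). Of all genes tested, 23.5% were higher and 25.8% lower. The SR split was 8 higher to 1 lower with scaling by library size alone and by the upper quartile. Of 26 hnRNP and tissue-type splicing regulators, 8 were higher and 4 lower, or 10 and 1 with either of those scalings, and RBM47, an epithelial RNA-binding protein, differed by 0.87. Of 10 oestrogen-responsive genes, 4 were higher and 3 lower. Both lines received 4-OHT, so this comparison cannot show an effect of 4-OHT on the oestrogen receptor. GREB1 differed by 1.87 and XBP1 by -1.66.

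The difference between the lines at 24 h was then set against that at 0 h, before any 4-OHT. The parental libraries at 0 h were uneven. Their mitochondrial share was 3.861% in replicate 1, 7.278% in replicate 2 and 7.031% in replicate 3. By Spearman correlation, replicate 2 lay nearest to a parental library of 8 h. At 0 h 14244 genes (64.3%) differed, 6995 higher in MYC-ER (31.6%) and 7249 lower (32.7%), and 6329 (28.6%) by at least 2-fold. The test of the change in the difference itself called 12071 genes (54.5%), 6131 moving up (27.7%) and 5940 moving down (26.8%) in MYC-ER relative to parental cells. Of the 5210 genes higher at 24 h, 2321 (44.5%) were already higher at 0 h, 1549 (29.7%, and 21.4% of those lower at 0 h) had been lower and 1340 (25.7%) had not been called. The 2321 are 33.2% of the genes higher at 0 h. Of the 5726 lower at 24 h, 3089 (53.9%, and 42.6% of those lower at 0 h) were already lower and 1495 (26.1%, and 21.4% of those higher at 0 h) had been higher. All 1549 and all 1495 genes that changed side passed the test of the change. MYC-ER libraries at 24 h had a mean Spearman correlation of 0.968 with parental libraries at 24 h and 0.941 with MYC-ER libraries at 0 h.

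**Figure D3:**
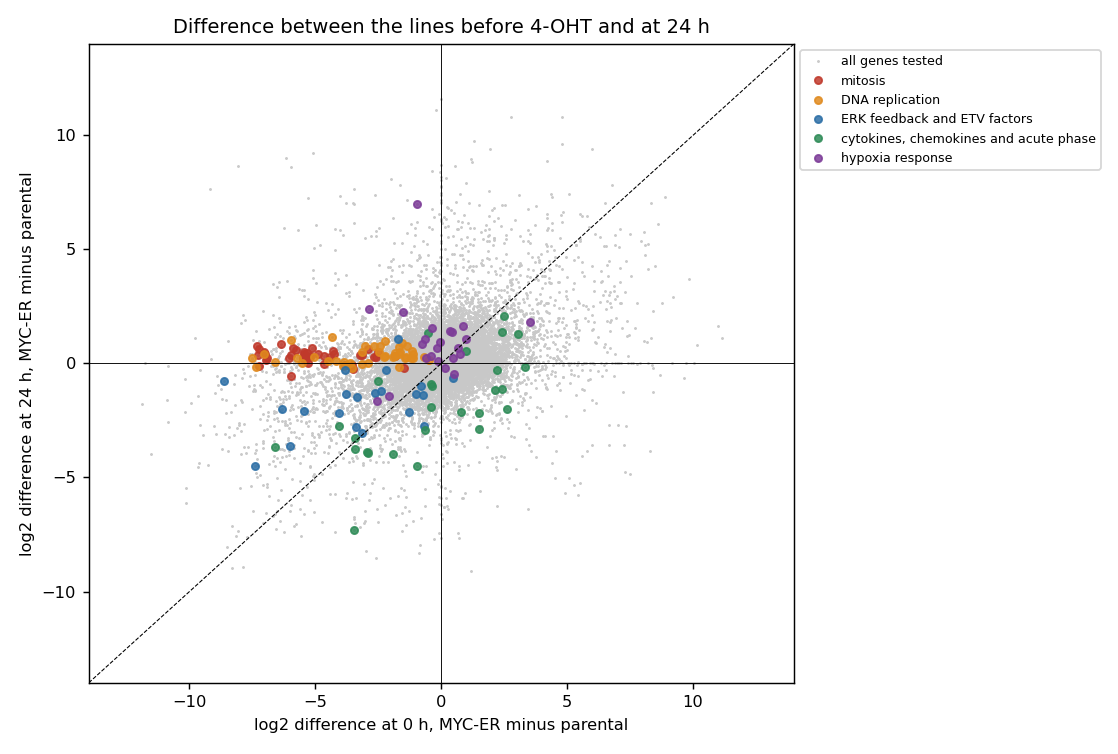
Log2 difference between the lines (MYC-ER minus parental) at 0 h on the x axis and at 24 h on the y axis, 1 point per gene, with 5 lists coloured and a dashed line of equal difference. Mitosis and replication genes lie far left of 0 at 0 h (medians -5.27 and -2.48) and near 0 at 24 h (medians 0.34 and 0.29).

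Genes of mitosis and DNA replication went from far lower in MYC-ER to near or above the parental level. All 40 mitosis genes were lower in MYC-ER at 0 h, with a median log2 difference of -5.27, and all 40 passed the test of the change, with a median of 5.54. All 43 replication genes did the same, with medians of -2.48 and 3.14. BIRC5, survivin, stood at 124, 118 and 117 CPM against 71.5, 69.0 and 73.0 CPM at 24 h (log2 difference 0.75), but at 0 h its mean was 0.503 CPM in MYC-ER and 81.3 CPM in parental cells (log2 difference -7.33). The change of 8.08 (SE 0.18, adjusted p = 2.4e-19) was the third most positive by the naming rule, after CR2 at 8.42 and HBA1 at 8.37. TK1, UBE2C, NEK2, KIF2C, PKMYT1 and PIF1, which serve nucleotide salvage, anaphase, centrosomes, spindles, mitotic entry and DNA unwinding, had changes of 7.55 to 7.94. MYBL2, a cell cycle transcription factor, had a change of 7.71 although it did not pass the test at 24 h (log2 difference 0.18, adjusted p = 0.179). For TK1 the difference at 24 h was small, 0.25 with an adjusted p of 0.0252, and it did not pass without any 1 of 4 libraries, namely MYC-ER replicates 1 and 2 (adjusted p = 0.065 and 0.0675) and parental replicates 1 and 2 (0.0622 and 0.103).

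Biosynthesis lists moved the same way. Ribosome biogenesis had 33 of 34 genes lower at 0 h (median -0.86), and 29 moved up by 24 h with none moving down. Glycolysis had 18 of 21 lower at 0 h (median -0.77), and 18 moved up. Of the sterol genes 18 of 23 were lower at 0 h (median -1.02) and 16 moved up, although 16 were lower at 24 h.

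ERK-induced genes were also lower in MYC-ER at 0 h, 20 of 21 of them, with a median of -3.14 against -1.40 at 24 h, and 14 moved up. DUSP6 differed by -7.39 at 0 h, so its difference shrank by 24 h, with a change of 2.89 (SE 0.14, adjusted p = 1.3e-13). ETV4, an ETS factor downstream of ERK, went from -8.64 at 0 h to -0.76 at 24 h. FN1, at -6.92 before 4-OHT, had a change of 1.61, and IVL, at -4.42, had one of -0.12 that did not pass the test (adjusted p = 0.83).

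Inflammatory genes moved down more often than up. The cytokine list was split at 0 h, with 11 higher and 13 lower and a median of -0.39, and 15 of 27 moved down by 24 h against 3 up. SAA1, an acute phase protein, had a mean of 682 CPM in MYC-ER and 155 CPM in parental cells at 0 h, and was at 37.4, 37.3 and 38.5 CPM against 85, 84.4 and 83.5 CPM at 24 h. Its difference went from 2.14 to -1.16, though SAA2 is a close copy. The most negative changes by the naming rule were those of STEAP4 (-5.50), AQP9, a glycerol channel (-4.73), SOD2, the mitochondrial superoxide dismutase (-4.70), BIRC3, an inhibitor of apoptosis induced by NF-kB (-4.69), and KRT16 (-4.65). SOD2 had a mean of 6512 CPM in MYC-ER at 0 h and was at 261, 245 and 265 CPM at 24 h, below the parental 383, 342 and 380 CPM. IL1R1, the interleukin 1 receptor, and TNFAIP3, an NF-kB inhibitor, went from 3.31 and 2.60 to -1.32 and -1.24. KRT10, a keratin of suprabasal skin, went from 3.46 to -0.67. SERPINA3, antichymotrypsin, kept a higher level, 5.99 at 0 h and 1.46 at 24 h, and GPNMB, a lysosomal glycoprotein, did as well, 4.27 and 0.67. FOXO targets moved from 17 of 19 higher (median 1.47) to 13 higher (median 0.44), and 16 of the 19 moved down.

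The change between 0 h and 24 h was correlated across genes with GC content and transcript length, and the difference at 24 h hardly was. Over 9784 genes at 10 CPM or more, the difference at 24 h had a Spearman rho of 0.016 with GC content and -0.044 with length, given as a description since genes are not replicates. The difference at 0 h had -0.258 and 0.381, and the change between them 0.250 and -0.382. With those trends removed from each library, 12188 genes passed the test of the change and 11651 the test at 24 h. The sets of genes were not the same. Of the 12071 genes called for the change in the main fit, 10418 were called again with the same sign. At 24 h this held for 10444 of 10936.

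Tests of the difference at 24 h against those at 8 h and 48 h called 10179 genes (45.9%; 22.7% upward and 23.3% downward) and 8275 genes (37.3%; 19.2% upward and 18.2% downward). They share the libraries of 24 h with the comparison above, so values are given side by side. For the mitosis list the median line difference was -5.27, -4.47, 0.34 and -0.97 in order of time (0, 8, 24 and 48 h), and 40 of 40 genes differed upward from 8 h and 39 from 48 h. For ribosome biogenesis the medians were -0.86, 0.54, 0.15 and -0.79, with 25 of 34 genes lower at 24 h than at 8 h in relative terms and 32 higher than at 48 h. The hypoxia list had -0.11, 0.61, 0.84 and -0.04. CA9 differed by 4.58 at 8 h and 4.05 at 48 h against 6.98 at 24 h, and EPCAM by 1.82 and 2.54 against 3.60.

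ERK-induced genes had medians of -3.14, 0.07, -1.40 and -1.68. At 8 h 6 of the 21 were higher and 5 lower, while of all 22158 genes tested 5110 were higher and 5656 lower. Of the 21, 17 were lower at 24 h relative to 8 h. DUSP6 differed by -0.86 at 8 h and -5.10 at 48 h. The cytokine medians were -0.39, -0.43, -1.98 and 0.65, with 15 of 27 genes lower relative to 8 h and 19 relative to 48 h. The protease medians were -1.84, 0.08, -1.46 and -2.06. Of the changes relative to 8 h, 49.3% were upward, against 67.5% with scaling by library size alone and 61.4% with the upper quartile. Those scalings put the median change of all genes at 0.27 and 0.20 in place of 0.06.

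**Figure D4:**
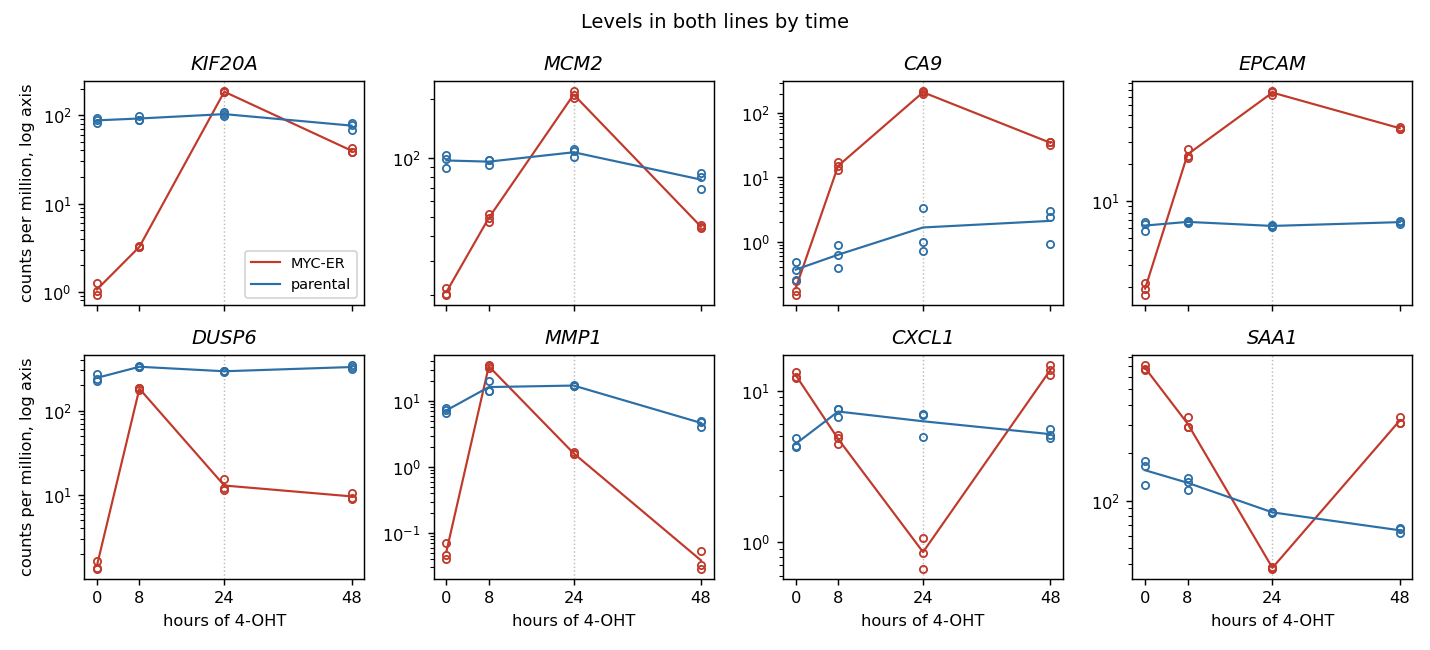
Levels of 8 genes in MYC-ER (red) and parental cells (blue) after 0, 8, 24 and 48 h of 4-OHT, in CPM on a log axis. Circles are libraries, lines join the means of 3, and the dotted line marks 24 h, where KIF20A was at 185 CPM in MYC-ER and 103 CPM in parental cells.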

How the data were processed

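Poly(A) RNA from 3D cultures was sequenced in 24 libraries, and the 6 libraries of 24 h of 4-OHT carry the main comparison. The authors deposited raw counts, whole numbers without normalisation, for 60668 Ensembl gene identifiers. Per the submitters' processing notes, the tools were Trimmomatic 0.39, STAR and StringTie 2.1.3b with the GRCh38 build. Their roles, and whether counting used strand, are not given in the sources used here. If the counts were derived from StringTie coverage, they are estimates, and the 3-count limits are approximate. Symbols came from the supplied table and GENCODE v29 (58570 rows).

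Groups were taken from the labels. Genes that passed edgeR's filterByExpr (22158, of which 21757 have a symbol) received TMM factors. The model in edgeR 4.0.16 under R 4.3.3 gave each of the 8 groups its own mean and used every library (136860029 to 182438505 counts). Contrasts were tested with the two-sided quasi-likelihood F test and Benjamini-Hochberg adjustment over all genes tested, and called at 0.05. The common dispersion corresponded to a biological coefficient of variation of 0.151. Levels are CPM on TMM-scaled totals, and log2 CPM used a prior count of 2. The fit of the 24 h difference was run on simulated data. Few genes differed between the lines at 24 h there, so it did not test the scaling where many differ.

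The members and the 27 gene lists were chosen with earlier results of these data known, so lists are described by counts and medians and were not tested. Named genes are the 12 most positive and 12 most negative at 24 h, and in the change from 0 h. These had to be past the threshold, with a symbol, 10 CPM in the higher group at 24 h and no overlap at 24 h. Clone-based and LINC names, read-through pairs and pseudogenes were left out. List members and MYC, ESR1, CDKN2A and CDKN2B were named as well. List members were picked for the text with their values known. Promoter windows came from RefSeq (GRCh38.p14), matched by symbol for 13263 of 22089 symbols. Alternatives were other scalings and filters, DESeq2 1.42.0, a fit of only the groups compared, a replicate block, leaving out each library and, chosen after seeing the data, removal of lowess trends (span 0.3) on GC content and length.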

Additional observations from a re-analysis of the deposited data

Results flagged for a closer look

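The following differences between the lines at 24 h also differed from those at another time, by a test of the change itself (edgeR, adjusted p under 0.05). The change passed for 12071 genes against 0 h, 10179 against 8 h and 8275 against 48 h. Among them, 1549 genes were higher in MYC-ER at 24 h and lower at 0 h, and 1495 were lower at 24 h and higher at 0 h.

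Of the 24 genes named for the most extreme differences at 24 h, among those at 10 CPM or more in the higher line, 23 had a difference that changed from 0 h, and IVL did not pass. Among the higher genes the log2 change was 8.42 for CR2, 8.37 for HBA1, 7.93 for CA9, 6.09 for DDN, 5.58 for SLC27A2, 5.48 for ARFGEF3, 4.34 for STC1, 4.10 for ABCA3, 3.70 for DUSP9, 3.05 for ILDR2, 2.69 for BCAN-AS1 and 1.56 for C1QL1. All 12 changes were upward in MYC-ER relative to parental cells. The 24 genes were chosen by their 24 h difference, which is part of the change, so these directions and calls partly follow from the choice. Of all genes tested, 54.5% passed the test of the change, 27.7% upward and 26.8% downward. Among the lower genes STEAP4 went from higher at 0 h (1.07) to lower, a change of -5.50. The difference had grown for SERPINB2 by a change of -3.27, for TRPV3 by -1.40, for CSF3 by -0.94 and for EREG by -0.86. It had shrunk for CHRNA9 by a change of 4.19, for DUSP6 by 2.89, for KCNJ15 by 2.41, for PLA2G4E by 2.30, for FN1 by 1.61 and for THBS1 by 0.79. The groups hold 3 libraries each, too few for a test of single libraries that stand apart.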

How the results depend on the processing

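No total count of calls moved by 1.5 times or more, but the downward changes from 8 h went from 5159 to 3356 with scaling by library size alone. The 10936 calls at 24 h became 10963 with DESeq2's size factors, 10277 without a filter, 10270 with at least 10 counts in every library, 11293 with DESeq2 (18 genes without an adjusted p) and 11533 in a fit of only the groups compared. Leaving out 1 library gave 9766 to 10225 calls at 24 h and 11492 to 12811 for the change from 0 h. The 12811 came without parental replicate 2 of 0 h. With the replicate block the counts were 10857 at 24 h, 11973 for the change from 0 h, 10109 from 8 h and 8161 from 48 h. Across genes, deviations of same-numbered libraries at 24 h correlated at -0.00253, 0.0349 and -0.000789. That does not settle whether equal replicate numbers share a batch, which the labels do not say. There were 171 results for named genes, each a difference at 24 h or a change from 0 h. Of their 2705 recomputed values, 2692 kept direction and side of the threshold. TK1 lost its call without a filter (adjusted p = 0.0596), besides the libraries named above. Calls were gained by MYBL2 (library size alone, upper quartile, only the groups compared), EGFR (only the groups compared, trends removed) and KRT18 (the same fits as EGFR, and without parental replicate 2); the cause was not tested. The difference in mitochondrial share ran from -0.133 to 0.645 percentage points without 1 library, negative only without parental replicate 3. Setting KRT13 and MX2, at 0 in parental cells, at their limit left their lists' medians at -1.09 and 0.44.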
